A study of Mus musculus with 18 samples.

Results

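The effect of the Fmr1 knockout on how mRNAs were divided between polysomes of medium size and the whole lysate was measured here as a log2 ratio, medium over input, taken gene by gene within each lysate. Of the 18 libraries in the series, the 12 that hold input or medium RNA enter this comparison. They come from 6 lysates, 3 of Fmr1 knockout (KO) slices and 3 of wild-type (WT) slices. In each genotype, 2 lysates had been treated with homoharringtonine (HHT replicates 1 and 2) and 1 with DMSO vehicle, so the ratio of the 3 KO lysates was compared with that of the 3 WT lysates with treatment as a covariate.

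All mice were males of strain C57BL/6N, aged postnatal day 28 to 35, and the KO allele had been backcrossed to a C57BL/6 background. Slices of hippocampus and cortex were held for 30 min in vehicle or in 20 µM HHT, and 10 slices from 2 to 3 mice of a genotype were pooled for a replicate, so each lysate averages over animals. The labels name no Cre driver or tissue restriction for the KO. Tissue was homogenised without detergent, cleared of debris by centrifugation, and given NP-40 only after that. A portion of each lysate was saved as input, and another was run on a 15 to 45% sucrose gradient. The gradient fractions to pool as medium were picked by immunoblots for FMRP. FMRP is the product of the gene knocked out, so such a blot cannot by itself place the cut in KO gradients. Whether the cut was equal between genotypes was not tested.

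FMRP, the product of Fmr1, is an RNA-binding protein that associates with polysomes in neurons and is known for slowing or stalling ribosomes on a set of long mRNAs. Its loss causes fragile X syndrome in humans. HHT blocks ribosomes that have just started while those already elongating run off, so an mRNA whose ribosomes are stalled stays in polysomes longer. A medium to input ratio above that of the average gene means that an mRNA holds a larger share of the medium RNA than of the lysate RNA. Each library describes shares of its own RNA pool and not amounts, and, as in any bulk tissue, fewer cells of a type and less RNA per cell cannot be told apart.

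Estimated counts totalled 6298975 to 13834652 per library over these 12 libraries, with the WT HHT replicate 2 input lowest. Levels are given as CPM, the depth-scaled count, with TMM factors over these libraries. Markers of neurons, astrocytes, oligodendrocytes and microglia were all measured in input. The 3 excitatory neuron markers summed to 5810 to 7200 CPM in KO input and 4740 to 5740 CPM in WT input. Of the 5 blood markers, 2 were measured, and they summed to 11 to 29 CPM in KO and 2.26 to 3.91 CPM in WT. The marker sums of the other 8 cell types and regions overlapped between genotypes. The part of these differences in the ratios below was not tested.

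Fmr1 itself, on mouse chromosome X from 68678541 to 68717963 (mm10), was checked first. Input held 23.5 and 33.3 CPM in the WT HHT lysates and 28.0 CPM in WT vehicle, against 8.97, 5.29 and 8.65 CPM in the KO lysates in the same order. Medium held 19.1, 24.4 and 31.1 CPM in WT and 7.59, 6.81 and 6.64 CPM in KO. Every KO library was thus below every WT library in both fractions, as the genotype labels require. The log2 ratio of the remaining Fmr1 reads was -0.29, -0.44 and 0.15 in WT and -0.24, 0.35 and -0.37 in KO. These ranges overlap, and the KO minus WT difference was 0.11 ± 0.24 (SE; 95% interval -0.39 to 0.62; edgeR quasi-likelihood test, adjusted p = 1.00).

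**Figure D1:**
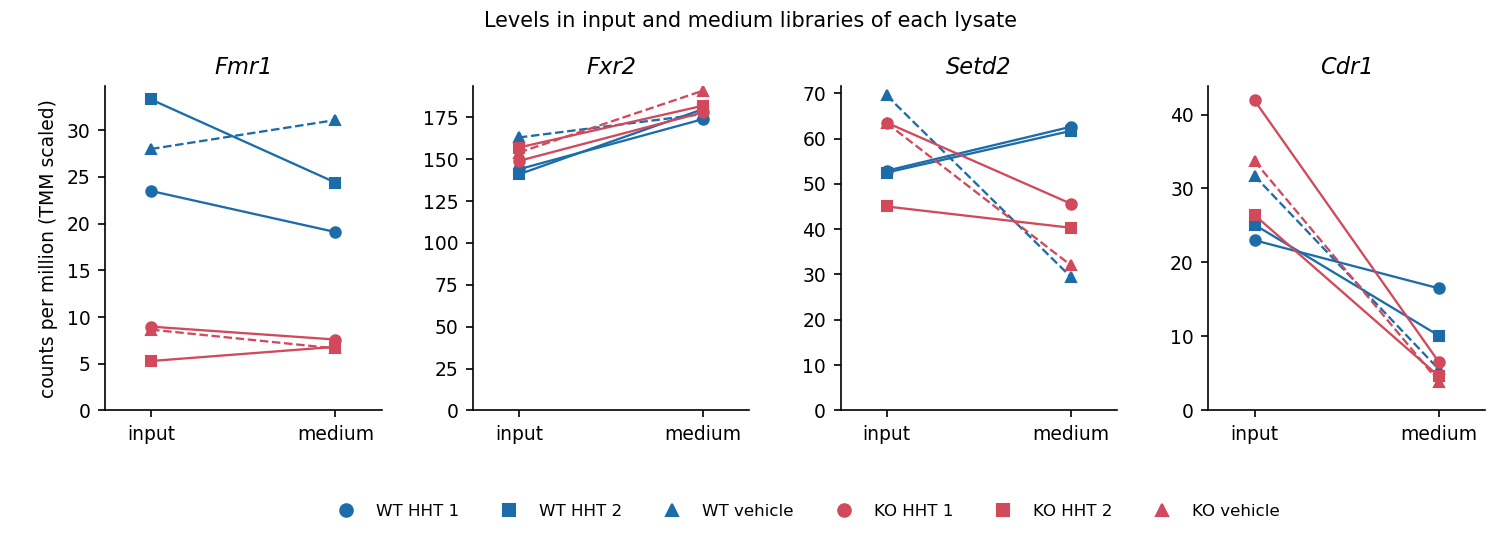
CPM (vertical axis, linear from 0) of Fmr1, Fxr2, Setd2 and Cdr1 in the input and medium libraries of each lysate, joined by a line. WT lysates are blue and KO lysates red, with circles and squares for HHT replicates 1 and 2 and triangles with dashed lines for vehicle. Fmr1 is low in all KO libraries, Fxr2 lies close together in all lysates, and Cdr1 in medium is highest in the 2 WT HHT lysates (16.5 and 10.1 CPM).

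Across all 13973 genes, no difference in the medium to input ratio between KO and WT passed the test in the main fit, which has no term for replicate number. The edgeR quasi-likelihood test called 0 genes at an adjusted p under 0.05 (0% of genes), and the lowest adjusted p was 0.446. At an unadjusted p under 0.05 it held 367 genes, or 2.63%, of which 204 were higher in KO (1.46%) and 163 lower (1.17%). That share is smaller than the threshold of 0.05 itself, so it is no excess of small p-values. Whether the p-values of this fit are too large was not tested. DESeq2 and limma also called 0 genes, with 59 and 508 genes at an unadjusted p under 0.05. In edgeR, 1 gene, Rsc1a1, was called when KO HHT replicate 2 was left out, and 0 when any other lysate was. With a term for replicate number added, edgeR called 2 genes, Cdr1 and Lrch4, the latter named after its values were seen. That fit held 618 genes at an unadjusted p under 0.05. A p that misses the threshold does not show that the ratios were alike.

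The median gene differed by 0.01 on the log2 scale, and the median size of the difference without its sign was 0.12. In 95% of genes it was at most 0.47, and 572 genes went past 0.5 and 30 past 1. The median SE was 0.19 and the median half-width of the 95% interval 0.40. Ratios of KO and WT, with treatment means removed, did not overlap in 1803 genes (12.9%), 940 higher in KO (6.73%) and 863 lower (6.18%).

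**Figure D2:**
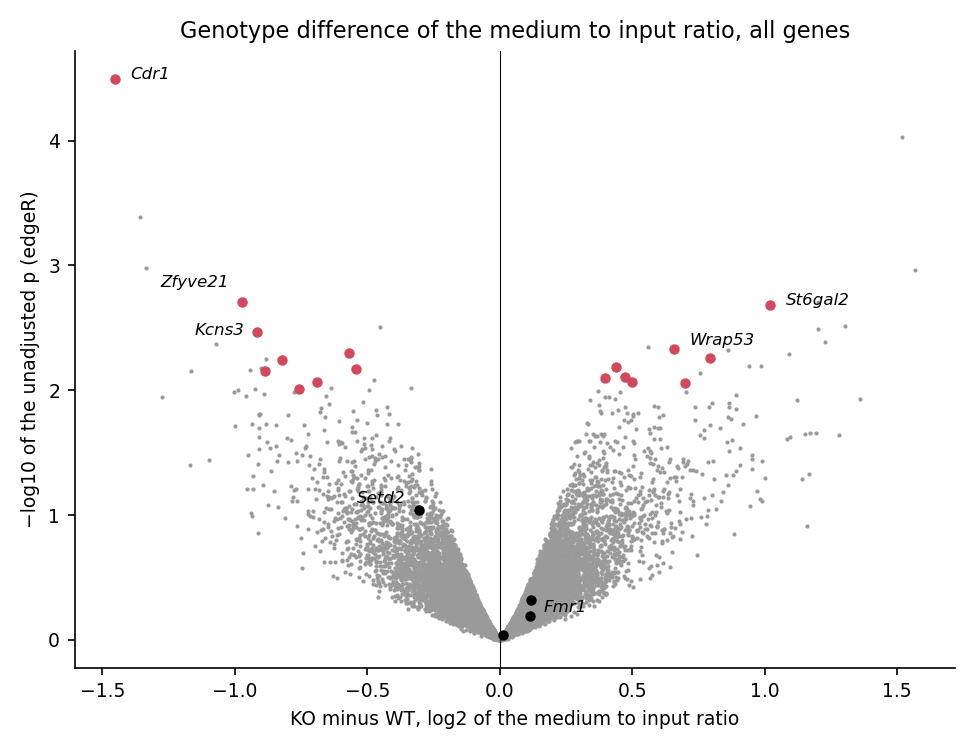
The KO minus WT difference in the log2 medium to input ratio (horizontal axis) against −log10 of its unadjusted edgeR p (vertical axis) for all 13973 genes. Red points are 17 genes named by rule and black points are Fmr1, Fxr1, Fxr2 and Setd2. Cdr1, at -1.45, has the smallest p of all genes, and its adjusted p is 0.446.

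Lysates of different genotype were about as alike as lysates of the same genotype under HHT. The median gap in a gene's log2 ratio between a KO and a WT HHT lysate was 0.157 to 0.264 over the 4 pairs. Between the 2 WT HHT lysates it was 0.231, and between the 2 KO HHT lysates 0.248. The KO and WT vehicle lysates were 0.19 apart, and vehicle has no second lysate of either genotype to set beside that value. Across treatments the gaps were larger, 0.3 to 0.489. The correlation of the ratios across genes, which are not independent replicates, was 0.635 to 0.671 for KO against WT under HHT, 0.689 within WT and 0.63 within KO.

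The width of the ratio distribution followed the replicate number more than the genotype under HHT. Its interquartile range was 0.474 in WT HHT replicate 1 and 0.466 in KO HHT replicate 1. In HHT replicate 2 it was 0.755 in WT and 0.713 in KO. In vehicle it was 0.705 in WT and 0.59 in KO.

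The paralogs and partners of FMRP came next by role. Fxr1 and Fxr2 encode the RNA-binding paralogs of FMRP, and Cyfip1 and Cyfip2 encode proteins that bind FMRP and the WAVE actin-regulating complex. Fxr2 (chromosome 11) had ratios of 0.27, 0.35 and 0.12 in WT HHT 1, WT HHT 2 and WT vehicle, and 0.26, 0.21 and 0.31 in the KO lysates in that order. The genotypes overlapped fully, with a difference of 0.01 ± 0.12 (95% interval -0.25 to 0.27). Fxr1 differed by 0.12 ± 0.16 (-0.22 to 0.46), Cyfip1 by -0.04 ± 0.16 (-0.38 to 0.30) and Cyfip2 by -0.04 ± 0.12 (-0.29 to 0.21). Exons of Fxr1 and Cyfip1 overlap genes on the other strand, so their counts are less certain. For Fxr2 and Cyfip2 these intervals exclude a change of 0.30 in either direction.

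Of the wider list of 22 FMRP partners, 21 were measured, and 16 were above 0 and 5 below, with a median of 0.09 against 0.01 over all genes. G3bp2, a stress granule protein that binds RNA, was the 1 member of 21 with an unadjusted p under 0.05, beside 2.63% of all genes. Its ratios were 0.16, 0.17 and -0.35 in WT and 0.38, 0.88 and -0.17 in KO, each KO lysate above the WT lysate of its treatment. The difference was 0.38 ± 0.14 (edgeR adjusted p = 1.00). On average it lay mostly in input, where KO minus WT was -0.30 in log2 CPM, against 0.08 in medium. Input of G3bp2 was 267, 296 and 285 CPM in WT and 246, 199 and 247 CPM in KO, with the widest gap in HHT replicate 2. Pura, an RNA-binding protein of dendritic transport granules, differed by 0.33 ± 0.20 and Stau1, a double-stranded RNA-binding protein of the same granules, by 0.23 ± 0.14.

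Setd2 encodes the histone methyltransferase that trimethylates lysine 36 of histone H3, and chromatin modification is a subject of the study's title. The gene lies on chromosome 9. Its ratio was 0.24 and 0.23 in the WT HHT lysates and -0.47 and -0.16 in the KO HHT lysates. In vehicle it was -1.24 in WT and -0.98 in KO. The KO lysates were thus lower under HHT and higher in vehicle. Over both treatments the difference was -0.31 ± 0.17 (95% interval -0.67 to 0.05; edgeR adjusted p = 1.00), and the difference between the treatments was -0.81 ± 0.35, with vehicle resting on 1 lysate a genotype. Setd2 held 62.6 and 61.7 CPM in WT HHT medium and 45.6 and 40.3 CPM in KO HHT medium. In the heavy pool of the same gradients the direction was the other. The heavy to medium ratio was higher in KO by 0.51 ± 0.15 and heavy to input by 0.22.

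Cdr1 had the smallest p of all genes. This gene lies on the minus strand of chromosome X from 61184005 to 61185558 (mm10), and the annotation places the noncoding gene C230004F18Rik, known in RefSeq by the synonyms Cdr1os and Cdr1as, across it on the plus strand. The plus strand is known for giving rise to a circular RNA of neurons that binds the microRNA miR-7. The sources used here do not state whether counting used strand, so reads of the 2 strands cannot be told apart, and no value is given for the circle. The sequences are shown because they tell the strands apart by their match to the microRNA. The capitals mark the seed of each microRNA (bases 2 to 8) and, in the site, the letters that pair with it. The microRNAs are RefSeq records on GRCm38.p6, and the site is read from GRCm38.
mmu-miR-7a-5p: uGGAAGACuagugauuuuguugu
mmu-miR-7b-5p: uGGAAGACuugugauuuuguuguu
strand opposite Cdr1: cttccccaaaatccatGTCTTCCt

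The site spans chrX:61184012-61184035 on the plus strand. Both microRNAs share 1 seed, and the motif GTCTTCC that pairs with it occurs 79 times on the strand opposite the 1554 bases of Cdr1 and 0 times on the Cdr1 strand. For comparison, 13.8% of 32663 protein-coding transcripts hold it in their first 1554 bases on their own strand, with at most 4 copies. A match of letters is a description and not a measured binding site.

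Cdr1 reads held 23, 25.1 and 31.7 CPM in WT input (HHT 1, HHT 2, vehicle) and 41.9, 26.4 and 33.7 CPM in KO input. In medium they held 16.5, 10.1 and 5.54 CPM in WT and 6.53, 4.61 and 3.88 CPM in KO. The log2 ratio was -0.48, -1.3 and -2.48 in WT, and -2.64, -2.47 and -3.05 in KO. The 2 WT HHT lysates stood highest, and each KO lysate was below the WT lysates of its treatment, although WT vehicle lay beside the KO lysates. The difference was -1.45 ± 0.27, which is 0.365 times the WT ratio (95% interval -2.02 to -0.89; edgeR adjusted p = 0.446). It did not pass the test over all genes in the main fit. It did pass when a term for replicate number was added, though the labels do not say that this number marks a shared preparation. Each alternative setting gave a negative value, from -1.73 to -1.05. The heavy to medium ratio of Cdr1 was higher in KO by 1.15 ± 0.29, with the same medium libraries in both ratios. For heavy to medium, edgeR called 0 of 13966 genes (0%), and 745 had an unadjusted p under 0.05 (5.33%), 413 higher (2.96%) and 332 lower (2.38%), with 170 at that level and 0 calls in DESeq2. The row of C230004F18Rik, at 2.19 to 4.07 CPM in input, differed by -0.16 ± 0.34.

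Because no gene was called, the other named genes are those with a mean of at least 5 CPM in both fractions, no overlap of the genotypes after treatment means were removed, and an unadjusted p under 0.01. Of these, 10 were higher in KO and 14 lower, and the naming rule takes the 10 largest of each, given as values and not as calls. Apart from Cdr1 their adjusted p was 1.00. Their genotypes do not overlap by the rule that chose them, so that separation is no result.

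Among the genes higher in KO, St6gal2, a sialyltransferase of the Golgi (chromosome 17), differed most. Its ratios were -0.19, -0.74 and -0.60 in WT and 0.34, 1 and 0.09 in KO, and the difference was 1.02 ± 0.29. St6gal2 was a low gene, at 3.84 to 7.08 CPM in input. Wrap53, a protein of Cajal bodies needed to deliver telomerase RNA, had ratios of -0.06, -0.25 and -0.04 in WT against 0.53, 0.58 and 0.49 in KO, a difference of 0.66 ± 0.20. For both genes all 3 KO values lay above all 3 WT values also without removal of treatment means.

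A further 6 higher genes ranged from 0.79 ± 0.25 to 0.40 ± 0.13. They were Fcf1, which acts in processing of the small ribosomal subunit RNA, Plcd4, a phospholipase C, and Fam134b, a receptor for selective autophagy of the endoplasmic reticulum. Rn45s, the precursor of ribosomal RNA, Dhx9, an RNA helicase, and Usp14, a deubiquitinase bound to the proteasome, completed them. Dhx9 was among the better measured, at 94.8 to 145 CPM in input, with ratios of -0.13, -0.36 and -1.68 in WT and -0.09, 0.31 and -1.05 in KO. In log2 CPM, KO minus WT for Fcf1 was -0.63 in input and 0.17 in medium. It was -0.39 and 0.09 for Fam134b and -0.36 and 0.04 for Usp14, so on average these differed mostly in input. For Plcd4 it was -0.34 and 0.40, for Rn45s -0.23 and 0.24, and for Dhx9 -0.26 and 0.18. Input of Fam134b was 48.8, 51.2 and 23.7 CPM in WT and 44.4, 27.3 and 21.8 CPM in KO (HHT 1, HHT 2, vehicle). Input of Usp14 was 136, 177 and 146 CPM in WT and 123, 111 and 121 CPM in KO. For both the input gap was widest in HHT replicate 2. Rn45s comes from repeated gene copies, so its count is uncertain. The exons of Fcf1, Plcd4 and Usp14 overlap a gene on the other strand, so their counts are uncertain too.

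Below Cdr1 on the lower side, Zfyve21, an endosomal protein with a lipid-binding FYVE domain, had ratios of -0.12, 0.16 and 0.93 in WT and -0.56, -1.15 and -0.07 in KO. The difference was -0.97 ± 0.27, at 3.46 to 9.64 CPM in input. In log2 CPM, KO minus WT was 0.63 in input and -0.32 in medium. Kcns3, a modifying subunit of voltage-gated potassium channels, had ratios of 0.51, 1.3 and 0.17 in WT and -0.10, -0.41 and -0.17 in KO. All 3 WT values were above 0 and all 3 KO values below it, with a difference of -0.92 ± 0.27. Most of this lay in input, where KO minus WT was 0.68 in log2 CPM, against -0.23 in medium. Kcns3 held 4.67 to 9.85 CPM in input, so it too was a low gene.

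A further 6 lower genes ranged from -0.88 ± 0.29 to -0.54 ± 0.18. Mrps28, a subunit of the mitochondrial ribosome, and Rpusd4, a pseudouridine synthase of mitochondrial RNA, act in mitochondria. Tmem132c, Adprm, Pcdhgb6, a protocadherin of neuronal adhesion, and Rnd1, a GTPase that acts on actin and axon growth, were the rest. Rnd1, at 29.2 to 42.2 CPM in input, had ratios of 0.07, -0.10 and 0.95 in WT and -0.16, -0.80 and 0.27 in KO. Pcdhgb6 shares its last exons with the other gamma protocadherins, so how the estimated counts divide among them is uncertain. In log2 CPM, KO minus WT for Pcdhgb6 was 0.65 in input and 0.08 in medium. For Mrps28 it lay mostly in medium, at -0.68 against 0.11 in input.

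**Figure D3:**
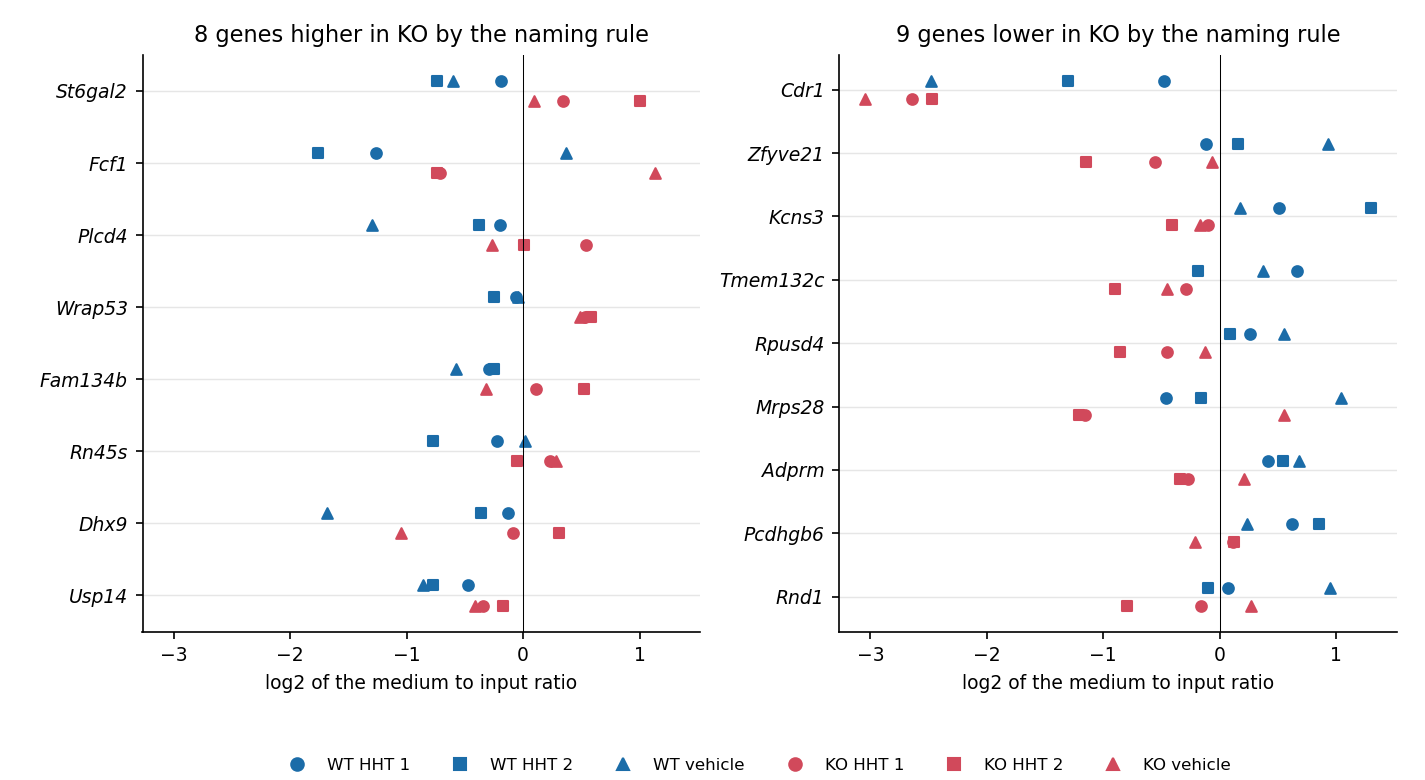
The log2 medium to input ratio of 8 genes higher and 9 genes lower in KO by the naming rule, 1 point per lysate. WT is blue and KO red, with circles and squares for HHT replicates 1 and 2 and triangles for vehicle. The separation of colours within a treatment follows from the rule, while the distance between circles and squares shows the replicate spread.

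FMRP-bound mRNAs, a selection from published crosslinking in brain, were the list closest to the question of ribosome stalling. Of 92 listed, 91 were measured, and 0 passed the test. The median KO minus WT difference was -0.06, with 30 members above 0 and 61 below, against 7271 above and 6702 below over all genes. The genotypes did not overlap in 0 members that were higher and 5 that were lower, beside 6.73% and 6.18% of all genes. At an unadjusted p under 0.05, 0 members were higher and 4 lower, beside 1.46% and 1.17% of all genes. The 4 were Dync1h1, Pclo, Macf1 and Herc2. Dync1h1, the heavy chain of cytoplasmic dynein, differed by -0.42 ± 0.16 and Pclo, a presynaptic active zone scaffold, by -0.43 ± 0.17. Macf1, a crosslinker of microtubules and actin, differed by -0.37 ± 0.16 and Herc2, a giant ubiquitin ligase, by -0.33 ± 0.14. Their heavy to medium ratio, with the same medium libraries, was higher in KO. It differed by 0.31 ± 0.26, 0.47 ± 0.19, 0.41 ± 0.13 and 0.49 ± 0.17, in that order. Heavy to input differed by -0.11, 0.05, 0.03 and 0.16. The list median for heavy to medium was 0.07, against 0 over all genes. A lower medium ratio thus need not mean a lower share of all polysomes.

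By treatment, the list's medians differed in sign, which was not tested for the list. Its median ratio was 0.16 and 0.24 in the WT HHT lysates and -0.04 and 0.14 in the KO HHT lysates, so both KO values lay below both WT values. In vehicle it was -0.72 in WT and -0.49 in KO, and the KO lysate lay above. The median of the KO minus WT difference was -0.14 under HHT and 0.19 in vehicle, against -0.01 and 0.02 over all genes. In the longest of the 5 coding length classes set out below it was -0.07 and 0.17. The vehicle value was thus near that of long genes in general. Whether the list differed from genes of like length was not tested. Leaving out 1 lysate in turn moved the median over both treatments from -0.14 to 0.02, the last without WT HHT replicate 2, so its direction rests on single lysates.

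Among the named members, Pclo, Macf1 and Herc2 were lower in KO under HHT and higher in vehicle, and Dync1h1 was lower in both. They were picked by small p in these same lysates, so they do not stand for the list. Dync1h1 differed by -0.595 under HHT and -0.056 in vehicle, and Herc2 by -0.53 and 0.09. The ratio of Pclo was -0.36 and -0.55 in WT HHT and -1.2 and -1.19 in KO HHT, a gap wider than that between replicates. In vehicle it was -1.8 in WT and -1.54 in KO. The difference of the KO effect between HHT and vehicle was -1 ± 0.29 (edgeR adjusted p = 1.00). Macf1 had ratios of 0.12, 0.29 and -0.78 in WT and -0.56, -0.23 and -0.68 in KO, with KO below WT under HHT and above it in vehicle.

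Whether the knockout effect on the ratio differed between HHT and vehicle was then tested for all genes. edgeR called 0 of 13973 genes (0%), with 207 at an unadjusted p under 0.05 (1.48%), 69 higher (0.494%) and 138 lower (0.988%). DESeq2 called 0 genes with 8 at that level, and limma 0 with 438. The median SE was 0.44, since vehicle has 1 lysate in each genotype and is assumed to vary like the HHT lysates. Without KO HHT replicate 1 edgeR called 1 gene, Pcdha6, and without KO HHT replicate 2 another, Cadm2.

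The same ratios were set out by coding length. Genes were divided into 5 classes of equal size by the length of their coding sequence in GENCODE M21, available for 13519 genes (96.8%). The KO minus WT median over both treatments was between -0.01 and 0.02 in each class. Under HHT alone it was 0.06, 0.02, 0, -0.02 and -0.07 from the shortest to the longest class, and in vehicle it was -0.09, -0.05, 0.02, 0.09 and 0.17. Of the genes with an unadjusted p under 0.05 for the difference between treatments, 76 in the longest class were lower and 4 higher, against 7 lower and 26 higher in the shortest.

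Seen by lysate, the longest class had a median ratio of 0.13, 0.22 and -0.38 in WT HHT 1, WT HHT 2 and WT vehicle, and 0.06, 0.16 and -0.22 in KO. The shortest class had -0.17, -0.32 and 0.26 in WT and -0.07, -0.30 and 0.18 in KO. The gap between the longest and shortest class was 0.30 and 0.54 in WT HHT, 0.13 and 0.46 in KO HHT, -0.64 in WT vehicle and -0.40 in KO vehicle. In both treatments the KO lysate of a given number had the smaller gap, yet under HHT the replicates of a genotype differed by more than same-numbered lysates of the genotypes did, and the ranges overlapped. Genes whose protein holds a hydrophobic stretch, a mark of membrane and secreted proteins, had a median difference of 0 and those without of 0.01.

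**Figure D4:**
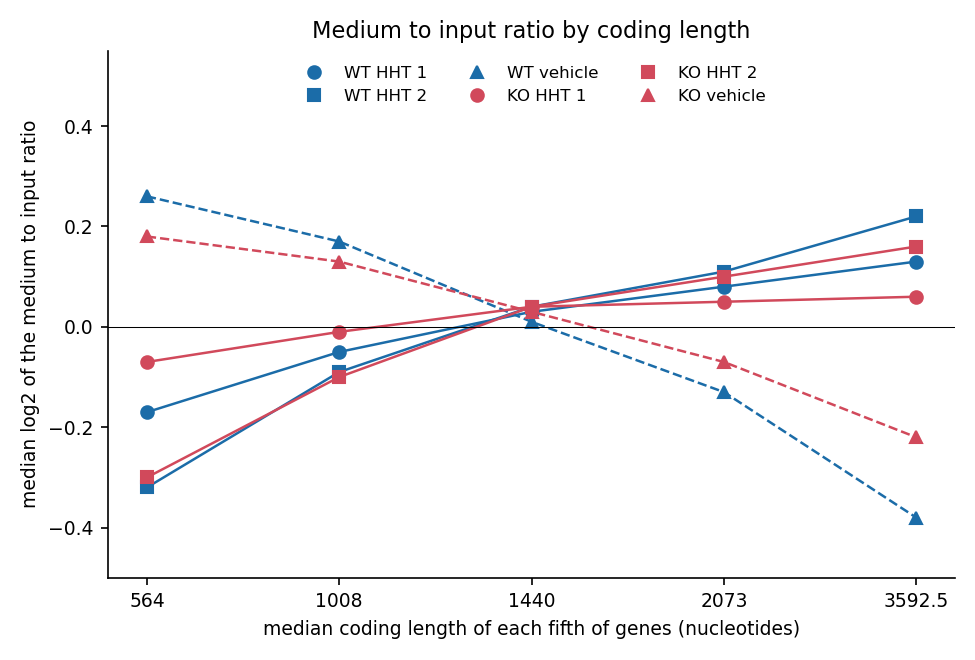
Median log2 medium to input ratio (vertical axis) of genes in 5 equal classes of coding length (horizontal axis, labelled with the median length of each class in nucleotides, evenly spaced), 1 line per lysate. WT is blue and KO red, with circles and squares for HHT replicates 1 and 2 and triangles with dashed lines for vehicle. The lines slope upward with length under HHT and downward in vehicle, and in the longest class vehicle reads -0.38 in WT and -0.22 in KO.

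A list of cytoskeletal and motor giants, which also holds giant ubiquitin ligases such as Herc2, had values near those of the FMRP-bound list. Both lists hold Dync1h1, Macf1 and Herc2. All 38 were measured, 14 above 0 and 24 below, with a median of -0.04. The genotypes did not overlap in 1 that was higher and 2 that were lower, beside 6.73% and 6.18% of all genes. At an unadjusted p under 0.05, 5 were lower and 0 higher, beside 1.17% and 1.46% of all genes. They were the 3 shared genes, Dst, a crosslinker of the cytoskeleton, at -0.38 ± 0.15, and Mycbp2, a ubiquitin ligase of axons named after its values were seen, at -0.35 ± 0.15. The list median was -0.15 under HHT and 0.19 in vehicle, and over both treatments it ranged from -0.15 to 0.06 over the alternatives, positive without KO HHT replicate 1 or without WT HHT replicate 2. Chromatin modifiers, of which 85 of 88 were measured, had a median of -0.03 that ranged from -0.08 to 0.02, positive without KO HHT replicate 1. Among them was Ash1l, a methyltransferase of histone H3 lysine 36, at -0.36 ± 0.16. Ratios of Ash1l were 0.22, 0.19 and -1.26 in WT and -0.57, -0.08 and -1.24 in KO, so the genotypes lay apart under HHT and together in vehicle. The heavy to medium ratio of Ash1l was higher in KO by 0.59 ± 0.15 and its heavy to input ratio by 0.23. Autism risk genes, 59 of 61 measured, had a median of -0.05, with 19 above 0 and 40 below. That median ranged from -0.10 to 0.06, and it was positive when either KO HHT replicate 1 or WT HHT replicate 2 was left out.

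Splicing factors had the highest median of the 33 lists. All 65 were measured, 50 above 0 and 15 below, and the median was 0.11 against 0.01 over all genes. It was 0.07 under HHT and 0.14 in vehicle, and it stayed positive in each alternative setting, from 0.05 to 0.16. By lysate the list's median ratio was -0.03, -0.12 and -0.42 in WT and -0.05, 0.02 and -0.26 in KO, so the genotypes overlapped under HHT. None passed the test. At an unadjusted p under 0.05, 3 were higher and 0 lower, beside 1.46% and 1.17% of all genes. The genotypes did not overlap in 13 that were higher and 1 that was lower, beside 6.73% and 6.18% of all genes. The 3 were the heterogeneous nuclear ribonucleoproteins Hnrnpa2b1 at 0.37 ± 0.13, Hnrnph2 at 0.32 ± 0.13 and Hnrnpu at 0.29 ± 0.12. They bind nascent RNA and guide splicing. In log2 CPM, KO minus WT was -0.33, -0.25 and -0.21 in input and 0.04, 0.07 and 0.08 in medium, in that order. On average their ratio differences thus lay mostly in lower KO input, and mean medium levels hardly differed. The input gap was widest in HHT replicate 2, where WT input was the shallowest library. Input of Hnrnph2 was 108, 141 and 120 CPM in WT and 107, 93.3 and 109 CPM in KO (HHT 1, HHT 2, vehicle). For Hnrnpu it was 343, 404 and 368 CPM against 334, 294 and 334 CPM. For Hnrnpa2b1 it was 163, 246 and 193 CPM against 146, 152 and 174 CPM. Hnrnpa2b1 had ratios of -0.15, -0.46 and -0.55 in WT and 0.21, 0.10 and -0.36 in KO, and Hnrnpu 0.11, 0.09 and -0.97 in WT and 0.22, 0.41 and -0.53 in KO.

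Cytosolic chaperones were similar, with 28 of 33 above 0 and a median of 0.09 that ranged from 0.03 to 0.17 over the alternatives. Hspa1b, the inducible HSP70, had ratios of 0.14, 0.38 and -0.75 in WT and 0.50, 1.35 and -0.35 in KO, a difference of 0.60 ± 0.22. It has a near-identical copy, so its counts are uncertain. Hsph1, a cofactor of HSP70, differed by 0.28 ± 0.12. Of 48 genes of endoplasmic reticulum translocation and folding, 34 were above 0, with Sec63 at 0.40 ± 0.17, Dnajb11 at 0.38 ± 0.16 and Txndc5, on the other side, at -0.35 ± 0.16.

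Ribosomal protein mRNAs, whose translation is controlled through mTOR, were spread evenly about 0. All 81 were measured, 40 above 0 and 41 below, the median was 0, and members ran from -0.37 to 0.37. The list median by lysate was -1.07, -1.56 and -0.45 in WT and -1, -1.57 and -0.52 in KO. Each KO value lay near the WT lysate of the same number and treatment, while the 2 HHT replicates lay farther apart. Leaving out 1 lysate moved the median from -0.18 to 0.16.

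Nuclear-encoded respiratory chain genes (76 measured) had a median of -0.04, translation factors (52) 0.06, proteasome subunits (31) 0.01 and mTOR pathway genes (31) 0. Synaptic lists lay near the middle as well, with glutamate and GABA receptors at 0.07, presynaptic genes at 0.02, postsynaptic scaffolds at 0 and voltage-gated channels at -0.01. Begain, a postsynaptic density protein, differed by -0.45 ± 0.13, with ratios of -0.16, -0.13 and 0.22 in WT and -0.51, -0.82 and -0.10 in KO. Immediate early and activity-regulated genes had a median of -0.06, with Klf2, a transcription factor, at -0.47 ± 0.21. Among cell type lists, medians ran from -0.17 in blood markers, which rested on 4 measured genes, to 0.04 in astrocyte and choroid plexus markers. Hba-a2, a hemoglobin chain with a near-identical copy, differed by -1.17 ± 0.53, beside the higher blood marker sum of KO input.

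**Figure D5:**
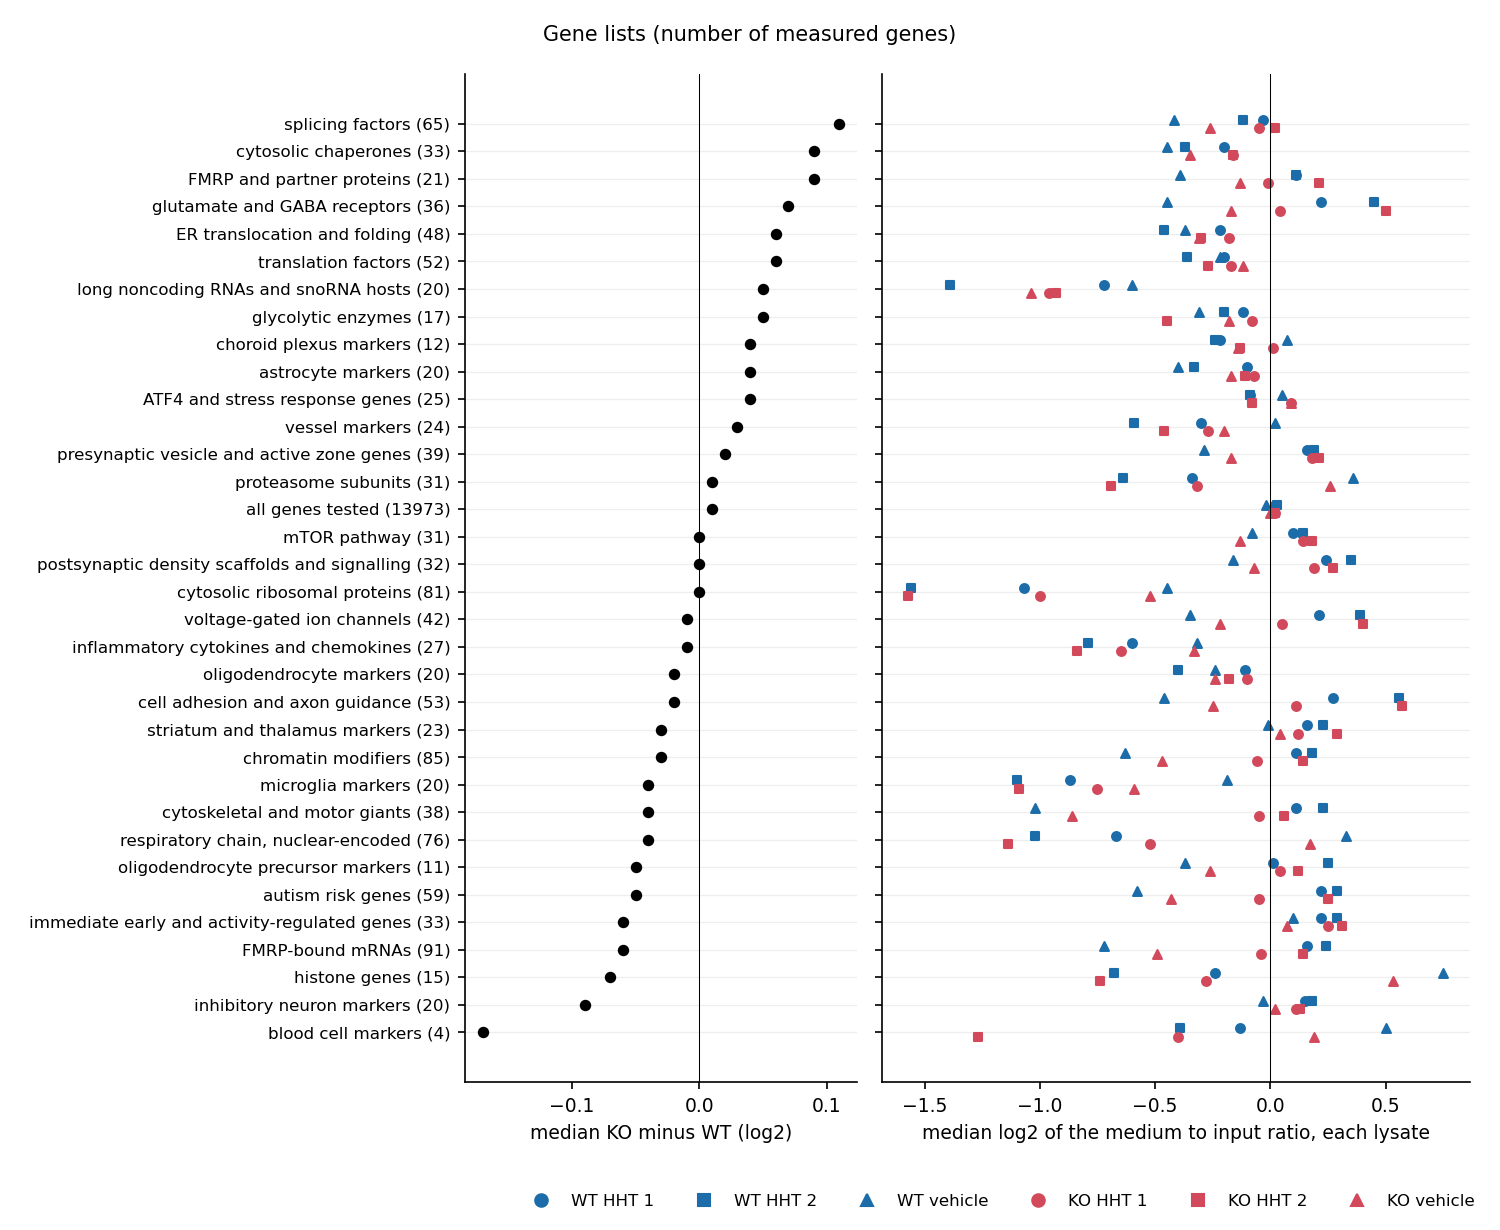
Left, the median KO minus WT difference in the log2 medium to input ratio for each gene list, with the number of measured genes in brackets. Right, the median log2 ratio of each list in each lysate, WT in blue and KO in red, circles and squares for HHT replicates 1 and 2 and triangles for vehicle. List medians on the left run from -0.17 to 0.11, while on the right the treatments and HHT replicates lie farther apart than the genotypes in lists such as ribosomal proteins.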

How the data were processed

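Polysome RNA-seq of 12 input and medium libraries was analysed, with the 6 heavy libraries used only for the heavy to medium ratio. Tools listed by the submitters' processing notes, with no roles, are RSEM 1.2.11, Bowtie2 2.1.0, DESeq2 1.16.1 and Trimmomatic 0.32, and the build is mm10. The authors deposited estimated counts for 13973 genes, with 0 of 251514 values whole within 1e-06. The second deposited table is a score, TPM rescaled by the authors so that 10 of 18 columns sum to more than TPM can. The tables differ only by gene and library factors. The sources used here do not state how genes were selected, whether batches were adjusted (which would understate the spread), or whether strand and molecular labels were used. The lowest rescaled TPM was 0.772 to 0.904 in the HHT replicate 2 libraries of both genotypes and 1.00 to 1.04 in all others, for a reason not tested. Columns without a sample numbered 0.

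After rounding, the quasi-likelihood test of edgeR 4.0.16 (R 4.3.3) was run with TMM scaling and its low-count filter, which kept all genes. Terms were lysate, fraction and fraction by treatment, and fraction by genotype was tested, leaving 3 residual degrees of freedom. P-values are 2-sided, Benjamini-Hochberg adjusted over all genes at 0.05. CPM ratios used a prior count of 2. Replicate numbers were not treated as pairs in the main fit, since the labels do not say that they mark a shared preparation. That choice leaves out a split between the HHT replicates seen in both genotypes, and the count of called genes depends on it. Alternatives used DESeq2 1.42.0, limma 3.58.1, RLE or total scaling, other filters, fewer lysates and a replicate block; limma on log2(rescaled TPM + 1) was chosen after seeing the data.

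Named genes were Fmr1, Fxr1, Fxr2, Cyfip1, Cyfip2 and Setd2, then up to 10 per direction by the rule in the text, then up to 4 per list by smallest p. Of the genes this rule names, 3 are not reported here. Others are said to be chosen after their values were seen. Members and lists were chosen with earlier results of these data known. The fits were run on simulated data with planted changes far larger than most differences seen here and no shared replicate effect. That run does not measure power or error for small differences.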

Additional observations from a re-analysis of the deposited data

How the results depend on the processing

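The count of 0 called genes for the medium to input ratio held under RLE factors, total scaling, both filters, DESeq2, limma on either table, no treatment covariate, HHT lysates alone and all 18 libraries. A replicate block gave 2 (Cdr1, at -1.48 ± 0.23 and an edgeR adjusted p of 0.00229, and Lrch4, a low gene named after its values were seen, at 1.57 ± 0.29), and HHT replicate 1 with vehicle alone gave 3 (Cdr1, Rsc1a1 and Pcdha4, also named afterwards). Leaving out 1 lysate gave 0 to 1, the 1 being Rsc1a1 without KO HHT replicate 2, and the count at an unadjusted p under 0.05 was 982 without KO HHT replicate 1, against 367. Rsc1a1, Lrch4 and Pcdha4 share exons with other genes. The difference between HHT and vehicle gave 0 to 1 without a lysate. For heavy to medium the counts were 0 in the full fit, 48 with the replicate block, 11 with HHT replicate 1 and vehicle alone, and 0 to 2 without a lysate. The cause was not tested. Whether the replicate numbers pair lysates is not stated. The deviations of the HHT replicates in WT and KO correlated at 0.128 across genes, which with 2 numbered pairs cannot decide it. The spread of the ratios and the lowest values did differ by replicate number in both genotypes. The count of 0 calls thus depends on leaving out the replicate term. Of 154 named genes, 137 had no value of the opposite sign in any setting run. Most were chosen by separation or small p in these same lysates, which favours a stable sign. The share over all genes was not computed, so this count is no measure of robustness. Low counts limit genes such as St6gal2 and Kcns3, and the single vehicle lysate of each genotype limits what can be said of treatments.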
